A study of Bos taurus with 72 samples.

Results

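The classical class II genes of the bovine major histocompatibility complex (BoLA) were followed in the blood of cattle through 3 stages of a feedlot period. The 4 genes were taken by their Ensembl identifiers: BOLA-DRA (ENSBTAG00000010645), BOLA-DRB3 (ENSBTAG00000013919), a BOLA-DQA gene (ENSBTAG00000009656) and BOLA-DQB (ENSBTAG00000021077). They are 4 of the 24616 genes of the count table, and all 4 were among the 12655 genes tested. The identifiers were given by name, with no measured value in the rule. Other class II genes of the region were not described.

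Whole blood came from 24 male beef cattle, each sampled at entry, when pulled and at close-out, which gave 24 libraries per stage and 72 in all. The series is about bovine respiratory disease, a pneumonia complex of feedlot cattle, and "pulled" is the feedlot term for an animal taken out of its pen. The labels give no breed, age, diagnosis, pathogen, treatment or number of days between samplings, and no cattle outside these 3 stages were analysed here, so stage cannot be told apart from age and time on feed. RNA was collected in PAXgene tubes, which fix blood RNA at sampling, and messenger RNA was selected by its poly-A tail. Library totals ran from 8.24 to 29.1 megareads (M), with a median of 17.2 M.

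Class II molecules present peptides from ingested material to CD4+ T cells. Each is a dimer of an alpha and a beta chain, carried mainly by B cells, monocytes and dendritic cells. BOLA-DRA encodes the DR alpha chain, which varies little between animals, and BOLA-DRB3 encodes its polymorphic beta partner. The DQ alpha and beta genes are polymorphic too, and cattle haplotypes differ in how many DQ genes they carry. In the RefSeq gene order of the assembly ARS-UCD2.0, a build other than that of the counts, the region reads BOLA-DQA2, BOLA-DQB, BOLA-DQA5, BOLA-DQB1, a gene with the synonym BoLA-DQA1, BOLA-DRB3, a pair of pseudogenes, BOLA-DRB2 and BOLA-DRA. Reads of near-identical DQ or DRB genes, or of alleles far from the reference, may be split between genes or lost, and the strand setting of the counting is not given in the sources used here, so the DQ and DRB3 counts are uncertain on that account.

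Other genes in the table have no names in the sources used here. The levels of the class II transactivator, invariant chain and peptide-loading genes, and of B-cell, monocyte and other blood cell markers, were therefore not computed, and the blood label was not checked against markers. In a bulk blood sample, fewer cells of a type and less RNA per cell cannot be told apart.

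Some libraries stood apart from their labels or from the rest. Animal 9's pulled library was nearly the same as animal 11's entry library, at a chi-square of 1.46 for each degree of freedom between them, against 29.1 for the next closest pair of libraries. Over 100 identity genes, chosen without the class II genes, its correlation was -0.0504 with its own entry library and -0.0836 with its own close-out library, and 0.966 with that entry library of animal 11. Animal 12's pulled library reached 0.106 and 0.0959 with its own animal and at most 0.182 with any other. Among the remaining libraries, all 68 same-animal pairs reached at least 0.792. At entry, 6 animals whose library titles carry numbers over 100 (called high-numbered below) also differed from the 18 low-numbered animals, with TMM scaling factors of 0.806 ± 0.0966 (SD, n = 6) against 1.14 ± 0.0876 (SD, n = 18). TMM is the trimmed-mean factor that corrects library totals for composition. The study did not define this division, which was seen in the data. The main results that rest on these libraries are given with and without them.

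The DQ genes separated the animals, and did so at every stage. Levels are given in CPM, that is reads per megaread of the TMM-scaled library. BOLA-DQA was high in 11 animals (3, 5, 6, 7, 10, 11, 12, 14, 15, 20 and 21), with 1898 to 8924 reads per library, or 108.2 to 363 CPM. Animal 22 lay between, with 12.4 to 23.2 CPM. In the other 12 animals (1, 2, 4, 8, 9, 13, 16, 17, 18, 19, 23 and 24) BOLA-DQA had 0 to 63 reads, or at most 3.16 CPM, in 35 libraries. The remaining library of these animals was the doubted pulled library of animal 9, where BOLA-DQA stood at 106 CPM against 0.199 at entry and 0.111 at close-out. Entry of animal 11, the library it matched, had 108.2 CPM. No BOLA-DQA read was counted in 9 libraries from 5 animals, and in animal 16 none was counted at any stage. A count of 0 allows up to 3 reads, or 0.129 to 0.317 reads per megaread of the unscaled totals of these libraries. This limit covers counting error only.

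BOLA-DQB also fell into separate ranges, but not among the same animals. In 10 animals (2, 4, 7, 9, 11, 13, 16, 17, 18 and 24) it had 2 to 40 reads per library, or at most 2.24 CPM. In the other 14 it ran from 3.02 to 857 CPM. The edge between the ranges was narrow: the close-out library of animal 11 held 2.24 CPM, and the entry library of animal 10 held 3.02 CPM. By mean log2 CPM, animals 7 (0.0855) and 10 (2.11) lay barely more than the dividing gap of 2 apart. Animals 22 (5.95) and 19 (7.91) lay just under that gap apart. The ranges of BOLA-DQB therefore depend on the gap chosen. The 4 animals with the highest levels were 1, 8, 19 and 23, at 182 to 857 CPM. Animal 23 led at every stage, with 600.01 CPM at entry, 667 CPM when pulled and 857 CPM at close-out. Next came animal 1, with 338, 411 and 493 CPM, then animal 8, with 282, 330 and 447 CPM, and animal 19, with 261, 182 and 291 CPM. These animals kept that order at all 3 stages.

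**Figure D1:**
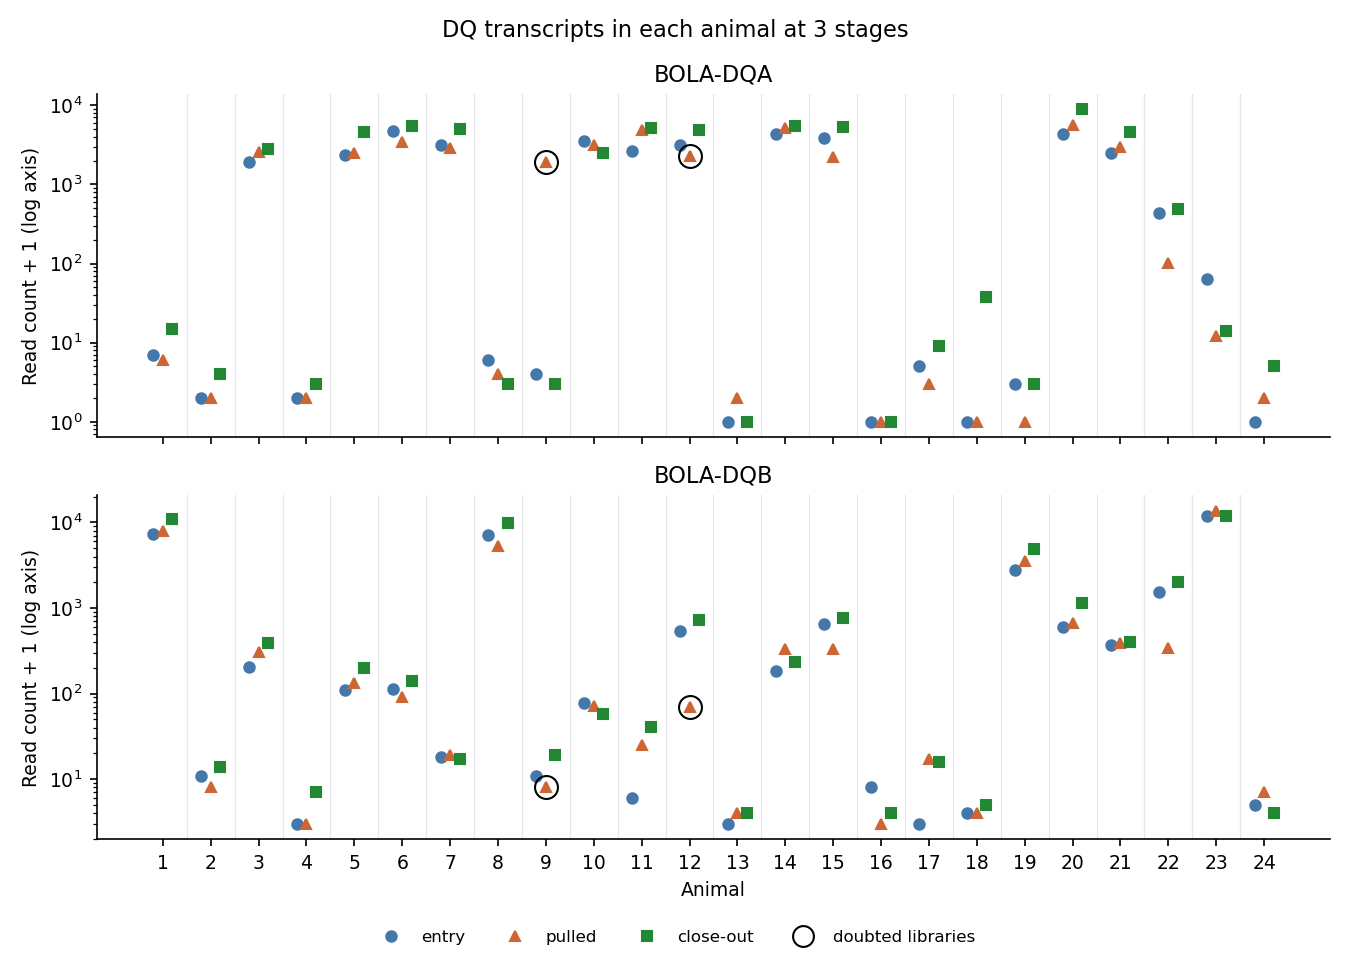
BOLA-DQA and BOLA-DQB read counts, with 1 added and on a log axis, for each of the 24 animals. Each stage has 1 point, and the doubted pulled libraries of animals 9 and 12 are ringed. Most animals keep to 1 range at all 3 stages. The ringed BOLA-DQA point of animal 9 stands for 1927 reads, while entry and close-out of that animal had 3 and 2 reads. Points also spread in animals with few reads. For BOLA-DQB they spread in animal 12, with 541 reads at entry, 68 when pulled and 730 at close-out.

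Read together, the 2 DQ genes gave 5 patterns. BOLA-DQA was high and BOLA-DQB was in its upper range in 9 animals (3, 5, 6, 10, 12, 14, 15, 20 and 21), where BOLA-DQB reached only 3.02 to 46.0 CPM. BOLA-DQA was high with little BOLA-DQB, 0.204 to 2.24 CPM, in animals 7 and 11. The 4 animals with the most BOLA-DQB (1, 8, 19 and 23) had next to no BOLA-DQA, from 0 to 3.16 CPM. Both genes were low in 8 animals (2, 4, 9, 13, 16, 17, 18 and 24), with BOLA-DQB at 0.12 to 1.04 CPM. Animal 22 alone had intermediate BOLA-DQA together with BOLA-DQB at 41.1 to 95.8 CPM. No animal had BOLA-DQA above 100 CPM together with BOLA-DQB above 100 CPM. These counts cover 1 alpha and 1 beta gene of the region, while the RefSeq order lists 3 DQ alpha and 2 DQ beta genes. They do not say how much DQ message an animal had in all.

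**Figure D2:**
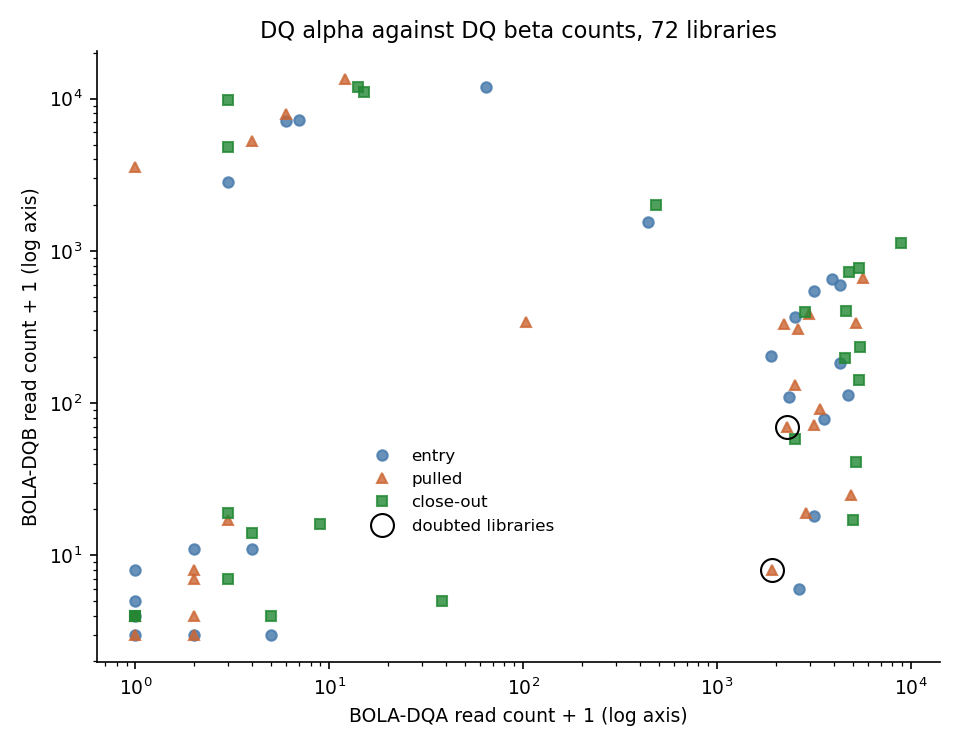
Read counts of BOLA-DQA against BOLA-DQB in all 72 libraries, with 1 added to each and both axes on a log scale, marked by stage and with the doubted libraries ringed. Libraries fall into a lower left set with few reads of either gene, an upper left set of 4 animals with BOLA-DQB alone, a right-hand set of 11 animals with BOLA-DQA, and animal 22 between them.

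The DR genes gave a different picture: every library held many of their reads, from 28159 to 158184 for BOLA-DRA and from 13659 to 74304 for BOLA-DRB3. Repeatability was expressed as the intraclass correlation, the share of the variance in log2 CPM, after stage means are removed, that lies between animals. It was 0.977 (jackknife SE 0.0109, n = 24) for BOLA-DQB and 0.933 (SE 0.0484) for BOLA-DQA. Of all 12655 genes, 0 had a higher value than BOLA-DQB and 13 had a higher value than BOLA-DQA. For BOLA-DRA it was -0.0352 (SE 0.124) and for BOLA-DRB3 0.111 (SE 0.163), where the median of all genes was 0.0613, and 69.8% and 41.1% of genes had higher values. Without animals 9 and 12 the values were 0.984 for BOLA-DQB, 0.979 for BOLA-DQA, -0.0219 for BOLA-DRA and 0.134 for BOLA-DRB3. BOLA-DQB was then no longer the highest: 0.0237% of genes had a higher value than BOLA-DQB and 0.0474% a higher value than BOLA-DQA. On the log2 scale, BOLA-DRA animal means had an SD of 0.19 between animals against 0.36 within animals, and BOLA-DQB 3.65 against 0.56.

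Of the 4 genes, 2 passed the edgeR quasi-likelihood F test for differences between animals, where 17.4% of all genes tested passed. BOLA-DQB had the largest F statistic in the table (F = 143, adjusted p = 1.47e-33), and BOLA-DQA ranked 20 (F = 27.5, adjusted p = 1.84e-17). BOLA-DRA (adjusted p = 0.835) and BOLA-DRB3 (adjusted p = 0.42) did not pass. Without the pulled libraries of animals 9 and 12, BOLA-DQA rose to rank 8 (F = 84.2), BOLA-DQB stayed at rank 1 (F = 198), and 18.2% of genes passed.

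**Figure D3:**
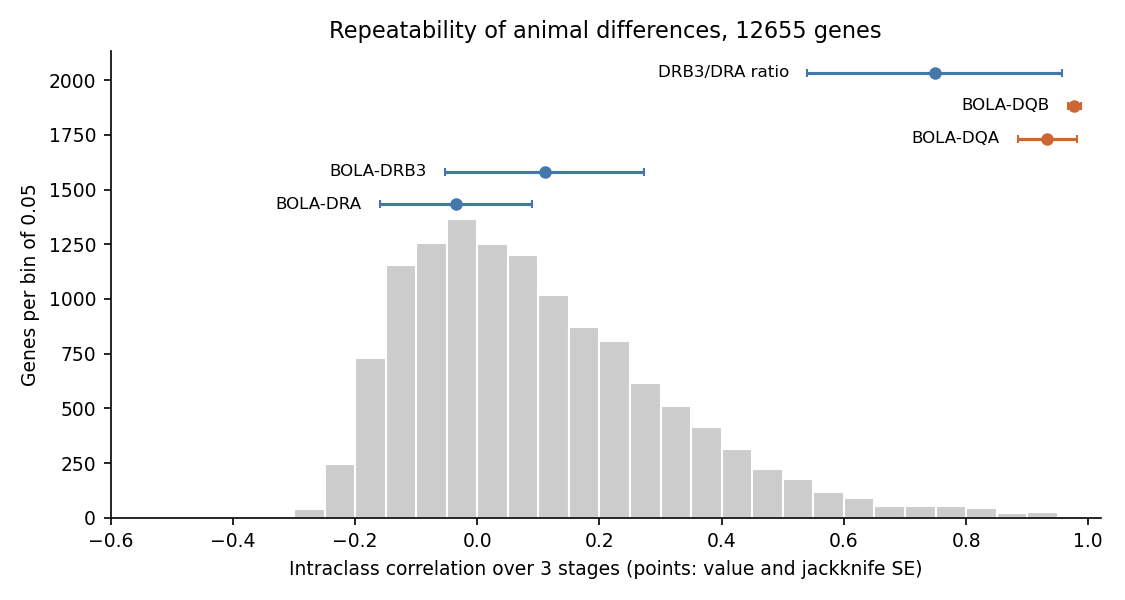
Intraclass correlation over the 3 stages for the 4 genes and the ratio of BOLA-DRB3 to BOLA-DRA, with jackknife standard errors over animals, beside the distribution over all 12655 genes tested. BOLA-DQB (0.977) and BOLA-DQA (0.933) lie at the upper end of the distribution, and BOLA-DRA (-0.0352) and BOLA-DRB3 (0.111) lie in its bulk.

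The order of animals within the ranges was then compared between stages, in 15 correlations with permutation p-values adjusted over all 15. The DQ ranges came from the means of these same values, so the DQ p-values hold only for the order within the chosen animals. Among the 14 animals with BOLA-DQB in the upper range, log2 CPM correlated between entry and close-out at r = 0.994 (rho = 0.991), with an adjusted permutation p of 7.5e-05. It correlated between entry and pulled at r = 0.936 (rho = 0.903) and between pulled and close-out at r = 0.945 (rho = 0.916), with adjusted permutation p of 0.000113 and 7.5e-05. With the 2 animals farthest from the median left out, these r were 0.990, 0.888 and 0.903. Within the 18 low-numbered animals, of which 11 were in this range, r was 0.996, 0.925 and 0.932 in the same order (adjusted permutation p of 0.0009 or less), and the high-numbered animals held too few for a value. Without animals 9 and 12, r over 13 animals was 0.994, 0.973 and 0.984 (adjusted permutation p = 3.75e-05 for each). Among the 11 animals with high BOLA-DQA, by contrast, no stage pair passed: r was -0.43 between entry and pulled (rho = -0.38), 0.261 between entry and close-out (rho = 0.282) and 0.294 between pulled and close-out (rho = 0.427), with adjusted permutation p from 0.288 to 0.497. Without animals 9 and 12 these r were -0.58, 0.209 and 0.237 over 10 animals, and in the 18-animal set they were -0.15, 0.487 (rho = 0.75) and 0.249 over 7 animals, where again none passed (exact permutation test, adjusted p from 0.446 to 0.784 in the latter). The repeatability of BOLA-DQA over 24 animals therefore lay in which animals were high or low, and a repeatable order among the high ones was not detected with 11 animals. Those 11 animals spanned only 108.2 to 363 CPM, while the 14 animals of BOLA-DQB spanned 3.02 to 857 CPM. A narrow span lowers r, so these r do not compare the repeatability of the DQ genes. For BOLA-DRA the 3 correlations over 24 animals were -0.42, 0.133 and 0.298, and for BOLA-DRB3 they were -0.15, 0.209 and 0.356, with adjusted permutation p from 0.0905 to 0.537. Within the 18 low-numbered animals the values, in the same order of stage pairs, were -0.24, 0.398 and 0.196 for BOLA-DRA and -0.07, 0.414 and 0.185 for BOLA-DRB3, and none passed (adjusted permutation p from 0.189 to 0.784). Within the 6 high-numbered animals they were -0.78, -0.11 and 0.32 for BOLA-DRA and 0.398, 0.158 and 0.907 for BOLA-DRB3, and none passed either (exact permutation test, adjusted p from 0.125 to 0.854). When animals 9 and 12 were left out, r was -0.42, 0.0883 and 0.37 for BOLA-DRA and -0.15, 0.178 and 0.453 for BOLA-DRB3. The highest of these, for BOLA-DRB3 between pulled and close-out, had an unadjusted permutation p of 0.0344 and an adjusted one of 0.0737.

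Repeatable levels were not detected for either DR gene, but their ratio within a library repeated between stages. This ratio of BOLA-DRB3 to BOLA-DRA counts is not corrected for gene length and is compared only between libraries. Its median was 0.51 at entry (0.444 to 0.781), 0.526 when pulled (0.43 to 0.773) and 0.507 at close-out (0.442 to 0.749), so the ranges of the 3 stages overlapped almost fully. Paired log2 differences between stages were 0.024 ± 0.12 for pulled against entry, -0.040 ± 0.14 for close-out against pulled and -0.016 ± 0.10 for close-out against entry (SD, n = 24), and none passed a two-sided sign-flip permutation test (adjusted p = 0.454 for each).

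Animal 4 had the highest ratio at every stage, with 0.781 at entry, 0.773 when pulled and 0.749 at close-out. Animals 23 (0.576, 0.617 and 0.632) and 13 (0.606, 0.611 and 0.601) came next by median. Animals 20 (0.451, 0.451 and 0.47) and 11 (0.457, 0.43 and 0.467) had the lowest medians. On the log2 scale the SD of the animal means was 0.16, against 0.087 within animals. The intraclass correlation of the log2 ratio was 0.749 (jackknife SE 0.208, n = 24). Animal 4 carried part of it: without that animal it was 0.548. Without animals 9 and 12 it was 0.786.

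Stage pairs of the log2 ratio correlated at r = 0.756 (rho = 0.551) for entry and pulled, 0.823 (rho = 0.691) for entry and close-out, and 0.669 (rho = 0.343) for pulled and close-out. The adjusted permutation p was 0.00027, 0.000113 and 0.0022 for r, and 0.0178, 0.000975 and 0.192 for rho. With the 2 animals farthest from the median left out, r was 0.491, 0.61 and 0.378. Leaving out animals 9 and 12 gave 0.807, 0.872 and 0.686 (adjusted permutation p of 0.00233 or less). The relation of pulled and close-out was the weakest of the 3. Its r of 0.378 without the 2 farthest animals was not tested, and its rho over 24 animals did not pass. Among the 18 low-numbered animals, r was 0.579 for entry and pulled (adjusted permutation p = 0.0405), 0.703 for entry and close-out (adjusted permutation p = 0.00428) and 0.494 for pulled and close-out (adjusted permutation p = 0.0919). Among the 6 high-numbered animals, which include animal 4, none passed: r was 0.965, 0.957 and 0.863 with rho of 0.257, 0.829 and -0.029 (exact permutation test, adjusted p = 0.162, 0.125 and 0.26 for r).

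**Figure D4:**
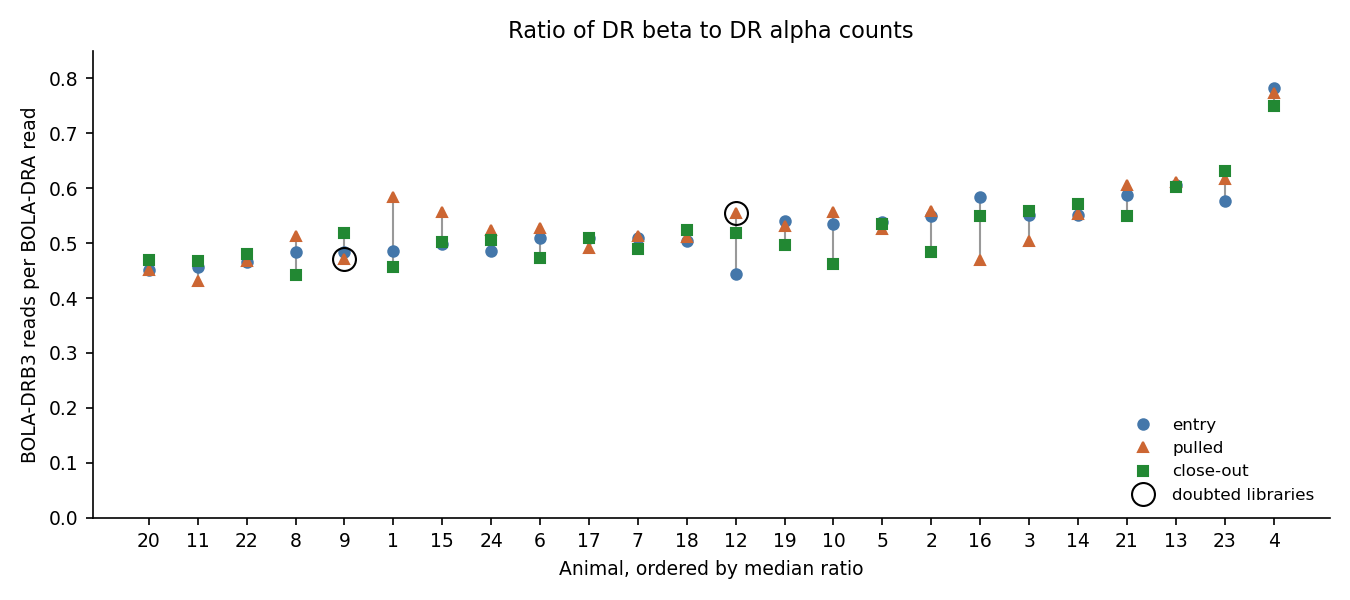
Ratio of BOLA-DRB3 to BOLA-DRA counts for each animal at the 3 stages, with animals ordered by their median. Animal 4 lies above all others at 0.749 to 0.781, and animals 11 and 20 lie at the lower end, at 0.43 to 0.47.

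Across stages, the DR genes were higher at close-out than at entry. BOLA-DRA ran from 2260 to 5285 CPM at entry (median 3624), from 2424 to 6219 CPM when pulled (median 3754) and from 3359 to 6554 CPM at close-out (median 4571). The ranges overlapped, but the lowest close-out library lay above the lowest pulled and entry libraries. Mean BOLA-DRA was 3498 ± 940.4 CPM at entry, 3941 ± 1021 CPM when pulled and 4783 ± 967 CPM at close-out (SD, n = 24). BOLA-DRB3 ran from 1096 to 2900.0 CPM at entry (median 1880), from 1140 to 3441 CPM when pulled (median 2046) and from 1533 to 4088 CPM at close-out (median 2487). Its means were 1855 ± 571, 2112 ± 576 and 2499 ± 598 CPM (SD, n = 24). The 4 genes together took a median of 0.544% of all counts at entry, 0.569% when pulled and 0.761% at close-out.

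For close-out against entry, 3 of the 4 genes passed as higher in edgeR (adjusted p under 0.05), where 10.2% of all genes tested were called higher. The log2 fold change was 0.45 (SE 0.11, adjusted p = 0.00226) for BOLA-DRA, 0.43 (SE 0.11, adjusted p = 0.00395) for BOLA-DRB3 and 0.58 (SE 0.15, adjusted p = 0.00555) for BOLA-DQB. BOLA-DQA had 0.70 (SE 0.37, adjusted p = 0.158). Close-out exceeded entry in 20 of 24 animals for BOLA-DRA, BOLA-DRB3 and BOLA-DQB, and in 17 for BOLA-DQA. The median log2 fold change of the 4 genes was 0.52, beside -0.024 over all genes. BOLA-DQA turned on animal 9: without the pulled libraries of animals 9 and 12 it passed too, at 0.68 (SE 0.22, edgeR adjusted p = 0.025), which made 4 of 4 against 10.7% of all genes, and the omission of animal 9 alone gave an adjusted p of 0.0245.

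These fold changes of the DQ genes were fitted over all 24 animals, including those with few reads. Levels by stage are given here for the animals in the upper ranges. In the 11 animals with high BOLA-DQA, the median was 166 CPM at entry (108.2 to 283), 193 CPM when pulled (135 to 307) and 292 CPM at close-out (162 to 363), and 10 of the 11 were higher at close-out than at entry (9 of 10 without animal 12). In the 14 animals with BOLA-DQB in its upper range, the median was 24.0, 24.8 and 39.2 CPM. With TMM, 14 of 14 were higher at close-out than at entry (13 of 13 without animal 12). By unscaled library totals animals 10 and 19 were lower, going from 3.414 to 3.411 and from 286 to 259 reads per megaread. These sets were formed from the levels themselves, so no test is given.

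Between pulled and close-out, BOLA-DRA (log2 fold change 0.27, SE 0.11, edgeR adjusted p = 0.0494) and BOLA-DQB (0.48, SE 0.16, edgeR adjusted p = 0.0183) passed as higher at close-out, 2 of 4 genes where 13.3% of all genes did. BOLA-DRB3 (0.24, SE 0.11, edgeR adjusted p = 0.102) and BOLA-DQA (0.40, SE 0.38, edgeR adjusted p = 0.466) did not. Close-out exceeded pulled in 19 animals for BOLA-DRA and in 18 for each of the others. The BOLA-DRA call lay at the threshold and was lost when any 1 of 16 animals was left out (adjusted p up to 0.0792). Without the doubted pulled libraries the calls changed: BOLA-DRA had 0.23 (edgeR adjusted p = 0.105), while BOLA-DQA (0.70, adjusted p = 0.018) and BOLA-DQB (0.35, adjusted p = 0.0456) passed, beside 12.8% of all genes.

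Between entry and pulled, 0 of the 4 genes passed in edgeR, while 42.0% of all genes tested did. At an unadjusted p under 0.05 the count was also 0, and limma-voom and DESeq2 called 0. The log2 fold changes were 0.17 (SE 0.11) for BOLA-DRA, 0.19 (SE 0.11) for BOLA-DRB3, 0.30 (SE 0.39) for BOLA-DQA and 0.11 (SE 0.16) for BOLA-DQB, with edgeR adjusted p from 0.145 to 0.599. The pulled library of animal 12 had BOLA-DQB at 4.53 CPM, against 23.1 CPM at entry and 35.4 CPM at close-out. Without the doubted libraries the BOLA-DQA value was -0.024 (edgeR adjusted p = 0.939), and 1 gene, BOLA-DRB3, reached an unadjusted p under 0.05. Without them 0 of 4 genes passed after adjustment, beside 43.0% of all genes.

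**Figure D5:**
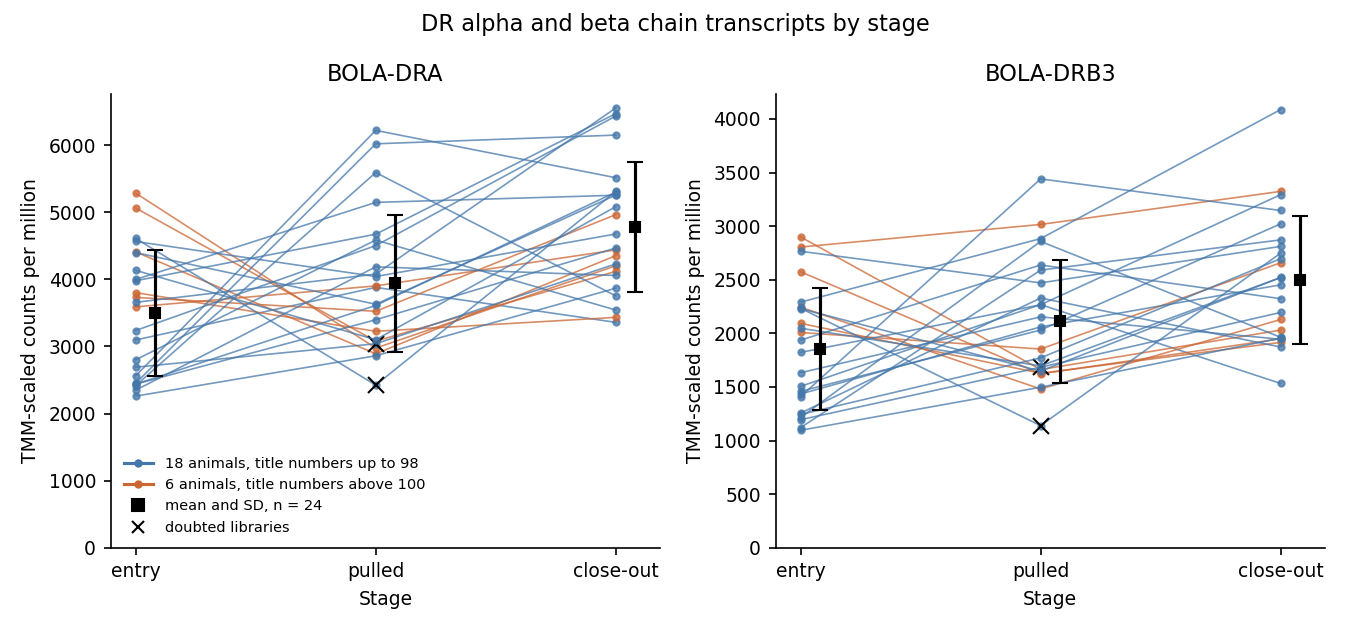
BOLA-DRA and BOLA-DRB3 levels (CPM after TMM scaling) at entry, pulled and close-out, with 1 line per animal and separate colours for the 6 high-numbered and the 18 low-numbered animals. The 6 lie at 3590 to 5285 CPM of BOLA-DRA at entry, where the median of all 24 animals is 3624 CPM, and in this scaling most of their lines fall to the pulled stage while most of the others rise.

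The DR change after entry did not run alike in the 2 sets of animals. In the 18 animals BOLA-DRA ran from 2260 to 4610 CPM at entry (median 2949) and from 2424 to 6219 CPM when pulled (median 4060). In the 6 animals it ran from 3590 to 5285 CPM at entry (median 4106) and from 2891 to 3902 CPM when pulled (median 3153). BOLA-DRA was higher when pulled than at entry in 14 of the 18 animals and in 1 of the 6, and the same counts held for BOLA-DRB3. At close-out BOLA-DRA was above entry in 18 of 18 and in 2 of 6 animals. The difference of the pulled against entry change, 6 minus 18 animals, was -0.77 (SE 0.22, edgeR adjusted p = 0.00173) for BOLA-DRA and -0.83 (SE 0.22, edgeR adjusted p = 0.000948) for BOLA-DRB3, on the log2 scale. Of the 4 genes 2 passed, and 68.4% of all genes passed the same test. The sets were told apart in these same entry libraries, so tests of changes from entry are not independent of the division. For close-out against entry the difference was -0.64 (edgeR adjusted p = 0.00871) and -0.71 (edgeR adjusted p = 0.00433), again 2 of 4 genes, where 64.6% of all genes passed. For close-out against pulled 0 of the 4 genes passed in edgeR, where 0.0% of all genes did, and 0 had an unadjusted p under 0.05.

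These differences turned on how libraries were scaled, and the TMM factors given above differed between the sets at entry. With library totals in place of TMM, the difference for pulled against entry was -0.16 for BOLA-DRA and -0.22 for BOLA-DRB3 (edgeR adjusted p = 0.493 and 0.342), although 65.3% of all genes still passed. For close-out against entry it was -0.010 and -0.082 (edgeR adjusted p = 0.968 and 0.738), where 62.4% passed. Within the 18 animals alone, BOLA-DRA (0.38, edgeR adjusted p = 0.00454) and BOLA-DRB3 (0.42, edgeR adjusted p = 0.00221) passed as higher when pulled than at entry with TMM, 2 of 4 genes where 33.9% of all genes did. With totals they did not pass, at 0.068 and 0.11 (edgeR adjusted p = 0.558 and 0.36). Under totals, BOLA-DRA and BOLA-DRB3 were higher at close-out than at entry in 16 of 18 and in 6 of 6 animals. Within the 6 animals, the close-out against entry log2 fold change of BOLA-DRA was -0.045 with TMM (edgeR adjusted p = 0.845) and 0.44 with totals (edgeR adjusted p = 0.0374). Over all genes, the median log2 fold change in that comparison moved under totals to 0.52 in the 6 animals and to -0.18 in the 18. Against those medians BOLA-DRA lay lower in the 6 and higher in the 18 under totals, with 0.45 in the 18. Over all 24 animals, BOLA-DRA, BOLA-DRB3 and BOLA-DQB passed for close-out against entry under both scalings, with 11.9% of all genes called higher under totals.

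The DR alpha and beta genes varied together in the animal means. Neither gene passed the test for differences between animals, so these means also carry variation between libraries of the same animal. Over 70 single libraries, the doubted ones left out, stage-centred log2 CPM of both genes correlated at 0.891. Over the 24 animal means of stage-centred log2 CPM, BOLA-DRA and BOLA-DRB3 correlated at r = 0.776 (rho = 0.835, adjusted permutation p = 6e-05 over 6 relations), and at 0.668 without the 2 animals farthest from the median. Within the 18 animals r was 0.874 (rho = 0.868, adjusted permutation p = 6e-05). Within the 6 animals r was 0.431 (rho = 0.6, exact permutation p = 0.282) and turned to -0.82 without the 2 farthest, so the relation was not detected there with 6 animals.

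Relations with BOLA-DQA were computed only among the 11 animals where it was high. Those with BOLA-DQB used only the 14 animals in its upper range. BOLA-DRB3 and BOLA-DQA correlated at r = 0.737 over 11 animals (adjusted permutation p = 0.0295) with rho = 0.827 (adjusted permutation p = 0.00867), and r was 0.494 without the 2 farthest. Without animal 12, r was 0.648 (adjusted permutation p = 0.132) and rho 0.794 (adjusted permutation p = 0.0284) over 10 animals, and r was 0.79 without the 2 farthest of those. With library totals r was 0.829 (adjusted permutation p = 0.00564), and 0.726 without the 2 farthest. The rank correlation thus passed with and without animal 12, while r did not pass without it. Within the 18-animal set r was 0.784 over 7 animals (exact permutation test, adjusted p = 0.102), and the 6-animal set held too few for a value. BOLA-DRA and BOLA-DQA had r = 0.669 (rho = 0.573, adjusted permutation p = 0.054). BOLA-DQB had r = 0.391 with BOLA-DRA (rho = 0.468) and 0.395 with BOLA-DRB3 (rho = 0.284) over 14 animals, with an adjusted permutation p of 0.197 for each. BOLA-DQA and BOLA-DQB, the alpha and beta chains of DQ, had r = -0.0021 over the 9 animals that were in both of these sets (rho = 0.0333, exact permutation test, adjusted p = 0.996).

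The single gene most like each of the 4 was sought over the 70 libraries left without the doubted ones, from stage-centred log2 CPM. These correlations share libraries and repeated animals, and are given as descriptions. BOLA-DRA and BOLA-DRB3 were closest to each other, at r = 0.891. After that, ENSBTAG00000015228 was most like both, at 0.883 with BOLA-DRA and 0.858 with BOLA-DRB3. Like them it showed little repeatability (intraclass correlation -0.13), but it did not pass for close-out against entry (log2 fold change 0.28, edgeR adjusted p = 0.277).

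ENSBTAG00000038128 was most like BOLA-DQB, at 0.852, with the next gene at 0.566. Its level was 13.1 to 21.5 CPM in the 8 animals where both DQ genes were low (23 libraries without the doubted one) and at least 34.9 CPM in every library of the other animals, the doubted one aside. It reached 74.7 to 164 CPM in animals 7 and 11, which had high BOLA-DQA and little BOLA-DQB, and 118 to 528 CPM in the 4 animals with the most BOLA-DQB. So the lowest values of ENSBTAG00000038128 went with few reads of both DQ genes rather than of BOLA-DQB alone. Its intraclass correlation was 0.948, and it too passed as higher at close-out than at entry (log2 fold change 0.39, SE 0.11, edgeR adjusted p = 0.0112). ENSBTAG00000003352 was most like BOLA-DQA, at only 0.534, with an intraclass correlation of 0.882. Its ranges in animals with high and low BOLA-DQA overlapped, at 10.1 to 132 CPM in the 9 animals with BOLA-DQA high and BOLA-DQB in its upper range and 0 to 59.3 CPM in the 8 animals with both low. In the 4 animals with low BOLA-DQA and the most BOLA-DQB it was 0 to 129 CPM. The medians of these sets, in that order, were 33.1, 0.282 and 48.8 CPM.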

How the data were processed

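Blood RNA of 24 cattle at 3 stages was measured by poly-A RNA-seq. The authors deposited raw read counts for each Ensembl gene, without normalization. The submitters' processing notes list the tools TopHat2 and HTSeq and the build UMD3.1, per the labels. Tool versions, annotation and strand setting were not given in the sources used here. Columns without a matching sample numbered 0. Of the table's identifiers, 0 matched the RefSeq gene table of ARS-UCD2.0, so genes other than the 4 are given by identifier.

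Counts were analysed in R 4.3.3 with edgeR 4.0.16. The edgeR filter left 12655 genes, libraries were scaled by TMM, and 1 quasi-likelihood model with animal as block and stage as factor was fitted to 72 libraries. P-values were adjusted over all genes by Benjamini-Hochberg and called at 0.05. Libraries were paired by the labelled animal. Log2 CPM used a prior count of 2. Animals were put in separate ranges of a gene where their sorted mean log2 CPM had a gap of over 2. Correlations used 100000 permutations, or all of them under 10 animals. The set comparison added a stage by set term. Named genes were the 4 and, for each, the most correlated other gene among those whose mean log2 CPM was 1 or more; no table paired names with identifiers, so the pathway and cell marker lists were not used. The class II genes were named by identifier, but they, the lists, the doubted libraries and the animal sets were chosen with earlier results of these data known. On simulated counts for pulled against entry over 12655 genes, 62% of 100 genes changed 1.5-fold and 86% of 100 changed 2-fold were recovered, with 4 false among 152 calls. Only these genes were changed and the animal sets were not simulated, while 42.0% of all genes passed in the data. These rates may therefore not hold for the data. Alternatives were no block, RLE scaling, library totals, DESeq2 1.42.0, limma-voom (limma 3.58.1), other low-count filters, other prior counts, ranks, fits of 2 stages, subsets of libraries or animals, and each animal left out.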

Additional observations from a re-analysis of the deposited data

Results flagged for a closer look

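The change of the DR genes after entry differed between the 6 high-numbered and the 18 low-numbered animals, by a test of the difference itself in edgeR. For BOLA-DRA the difference of log2 fold changes, 6 minus 18 animals, was -0.77 for pulled against entry and -0.64 for close-out against entry. For BOLA-DRB3 it was -0.83 and -0.71. The division was made because the sets stood apart at entry, and 68.4% and 64.6% of all genes passed the same tests. The tests used those same entry libraries, so they are not independent of the division, and the difference is not particular to the DR genes. Without the pulled libraries of animals 9 and 12 the differences for pulled against entry were -0.85 and -0.90, and with RLE scaling -0.85 and -0.91. With library totals none of the 4 passed. The labels record neither batch nor date, so a batch and a state of the animals cannot be told apart.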

How the results depend on the processing

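Values are log2 fold changes unless named otherwise, and the cause of each change was not tested. Without the animal block, that is with no replicate block, BOLA-DQB no longer passed for close-out against pulled (0.44) or close-out against entry (0.51), where the spread between animals entered the error; the block changed no other call. BOLA-DRA for close-out against pulled no longer passed under RLE scaling (0.27, edgeR adjusted p = 0.0686), with no low-count filter (0.27, edgeR adjusted p = 0.0775), without the pulled libraries of animals 9 and 12 (0.23) or in the 18 animals (0.24). With library totals, BOLA-DQB for pulled against entry was -0.051, BOLA-DRB3 passed for close-out against pulled (0.39), the correlation of BOLA-DRA and BOLA-DQA passed (0.762), and that of BOLA-DQA and BOLA-DQB was 0.119. With only the libraries of the stages compared, BOLA-DRB3 passed for close-out against pulled (0.27) and BOLA-DQA for close-out against entry (0.68). Without the doubted pulled libraries, BOLA-DQA was -0.024 for pulled against entry and passed for close-out against pulled (0.70) and close-out against entry (0.68). Without animals 9 and 12, the Pearson correlation of BOLA-DRB3 and BOLA-DQA no longer passed (0.648), while rho still did (0.794, adjusted permutation p = 0.0284), and that of BOLA-DQA and BOLA-DQB was 0.019.

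In the 18 animals, BOLA-DRA (0.38) and BOLA-DRB3 (0.42) passed for pulled against entry, as 33.9% of all genes did in that direction. The repeatability of BOLA-DRA was 0.0922, the correlation of BOLA-DRB3 and BOLA-DQA no longer passed (0.784), and that of BOLA-DQA and BOLA-DQB was 0.311. In the 6 animals, pulled against entry was -0.42 for BOLA-DRA, -0.44 for BOLA-DRB3, which passed as lower (edgeR adjusted p = 0.0352), -0.26 for BOLA-DQA and -0.15 for BOLA-DQB. Close-out against pulled was 0.37 for BOLA-DRA and 0.39 for BOLA-DQB, neither passing. Close-out against entry was -0.045 for BOLA-DRA, -0.11 for BOLA-DRB3 and 0.24 for BOLA-DQB, none passing. On ranks, repeatability was 0.832 for BOLA-DQA, 0.947 for BOLA-DQB and 0.528 for the DR ratio.

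Other fits were chosen after seeing the data. In 16 animals (the 18 without animals 9 and 12), BOLA-DRA (0.42) and BOLA-DRB3 (0.45) passed for pulled against entry and BOLA-DQA for close-out against entry (0.82), while BOLA-DRA (0.20) and BOLA-DQB (0.36) no longer passed for close-out against pulled. In the 18 animals with totals, BOLA-DRA (0.068) and BOLA-DRB3 (0.11) did not pass for pulled against entry, BOLA-DQB was -0.15 for pulled against entry and BOLA-DRB3 passed for close-out against pulled (0.35). Without the doubted libraries and with totals, BOLA-DQA was -0.14 for pulled against entry and passed for close-out against pulled (0.80) and close-out against entry (0.66), and BOLA-DRB3 passed for close-out against pulled (0.34). In the 6 animals with totals, pulled against entry was -0.088 for BOLA-DRA and -0.11 for BOLA-DRB3. In the same fit BOLA-DQA passed for close-out against pulled (0.75) and close-out against entry (0.85), while BOLA-DRA (0.53) and BOLA-DQB (0.57) for close-out against pulled and BOLA-DRB3 (0.38) for close-out against entry did not. In the 6 animals alone the correlation of BOLA-DRA and BOLA-DRB3 was 0.431 and no longer passed.

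With each animal left out in turn, pulled against entry ran from 0.11 to 0.21 for BOLA-DRA, 0.14 to 0.24 for BOLA-DRB3, -0.012 to 0.46 for BOLA-DQA and 0.01 to 0.20 for BOLA-DQB. Close-out against pulled ran from 0.26 to 0.32, 0.21 to 0.28, 0.25 to 0.69 and 0.38 to 0.55 in the same order of genes. Close-out against entry ran from 0.42 to 0.48, 0.40 to 0.47, 0.57 to 0.84 and 0.51 to 0.61. BOLA-DQA changed sign or passed only without animal 9. Repeatability ran from -0.11 to 0.00637 for BOLA-DRA, 0.0231 to 0.159 for BOLA-DRB3, 0.928 to 0.980 for BOLA-DQA, 0.973 to 0.984 for BOLA-DQB and 0.548 to 0.789 for the DR ratio, lowest without animal 4. Low BOLA-DQA and BOLA-DQB counts limit fold changes in the animals with few reads.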
